A study of Homo sapiens with 4 samples.

Results

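The genes described here are 49 components of Wnt signalling, measured by RNA sequencing in cells with reduced TMEM9 (TMEM9 KD, 2 libraries) and in wild-type cells (WT, 2 libraries). Both groups are labelled as MDA-MB-453, a human breast cancer line known for a luminal, apocrine character. No source used here says how TMEM9 was reduced, whether the TMEM9 KD cells were a single clone, or whether replicate libraries came from separate cultures. The p-values thus rest on library-to-library spread alone, and that spread may be technical. The members were taken by gene symbol from the 48162 genes of the deposited count table, and every symbol matched 1 gene: 10 Wnt ligands, 2 genes of ligand secretion, 16 receptors, 8 antagonists, 8 genes of the destruction complex and the Dishevelled family, and 4 TCF factors with the target gene SOX9.

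Wnt proteins are lipid-modified secreted ligands. In the branch that acts through beta-catenin, a ligand bridges a Frizzled receptor and an LRP5 or LRP6 co-receptor, the Dishevelled proteins are recruited, and the destruction complex of AXIN, APC and GSK3B stops marking beta-catenin for degradation, so that beta-catenin enters the nucleus and acts with TCF factors. Other branches, for which WNT5A with the ROR and RYK receptors is best known, act on cell polarity and movement. TMEM9 is a membrane protein of endosomes and lysosomes, and in colorectal cancer cells it has been described to raise beta-catenin signalling by promoting the lysosomal breakdown of the APC protein. The comparison below asks which Wnt genes differ in transcript level when TMEM9 is reduced. It holds no measurement of proteins or of signalling.

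The libraries held 15960941 and 17065126 counts in TMEM9 KD, against 15323843 and 18517337 in WT. Levels are given as CPM, the count of a gene relative to the total of its library after TMM scaling. TMEM9 itself had 3.11 and 4.46 CPM in the TMEM9 KD libraries, against 74.8 and 83.1 CPM in the WT libraries (log2 fold change -4.37, SE 0.126, adjusted p = 4.12e-52). Of 15 luminal and apocrine markers, 3 rose, which were FOXA1, GATA3 and KRT18, and 3 fell, among them ERBB2, with 53.2 and 55.4 CPM in TMEM9 KD and 63.5 and 63.7 CPM in WT. A further 7 did not pass the expression filter, and of these PIP had 0 counts and TFF3 at most 1 count in every library. Of 10 basal or mesenchymal markers, all 10 were tested, with summed levels of 2912 to 2980 CPM in TMEM9 KD and 2204 to 2247 CPM in WT; 3 rose, among them AXL, and 7 fell, among them KRT5 and KRT14, which had 0 counts in TMEM9 KD. VIM made up most of the basal or mesenchymal sum, with 1843 and 1742 CPM in TMEM9 KD and 1341 and 1354 CPM in WT. Among the luminal and apocrine markers, 8 passed the filter, while KRT19, EPCAM, AGR2 and SPDEF had at most 9 counts in any library. The labels' cell type is therefore only partly borne by its markers, in both groups. Summed leukocyte markers were at 12.1 to 13.4 CPM in TMEM9 KD and 199 to 200.1 CPM in WT. Of 5 leukocyte markers tested, 4 fell and 1 rose. LCP1 alone had 5.85 and 6.52 CPM in TMEM9 KD and 186 and 183 CPM in WT. CD14 also fell, with 12 and 29 counts in TMEM9 KD and 93 and 150 in WT, as did CD74 and ITGB2. The pan-leukocyte gene PTPRC had 4.39 and 4.004 CPM in TMEM9 KD and 2.27 and 2.78 CPM in WT and was called as higher (adjusted p = 0.018), and CD3E and LYZ were at 0 counts in every library. Summed levels were 1534 to 1703 CPM in TMEM9 KD and 2072 to 2107 CPM in WT for 9 fibroblast markers, of which 4 rose, COL1A1 among them, and 4 fell, COL3A1 among them. They were 0.61 to 1.14 CPM in TMEM9 KD and 0.0555 to 0.0668 CPM in WT for 4 endothelial markers, and 6.22 to 7.44 CPM in TMEM9 KD and 13.7 to 13.8 CPM in WT for 9 photoreceptor genes, listed because the series text calls the profiles retinal. The mitochondrial share was 3.18% and 2.83% in TMEM9 KD, against 3.98% and 3.98% in WT. The part of these differences in the results below was not tested, and in bulk RNA fewer cells expressing a gene and less RNA per cell cannot be told apart.

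Of the 49 members, 43 passed the filter on low counts. A change was called at an adjusted p below 0.05 over all 14923 genes tested, and log2 fold changes are of TMEM9 KD over WT, with their standard error (SE). Among the 43, 13 rose, 17 fell and 13 were not called. That is 69.8% of the members tested, where 57.7% of all genes tested were called, 28.7% as higher and 29% as lower. Changes of at least 2-fold were called for 5 members upward and 6 downward, against 7.24% and 10.1% of all genes. LEF1 is among the 5 and WNT6 among the 6. Each of them passed the filter through 1 group only, so that its direction was a condition of testing. Without LEF1 and WNT6, 12 of 41 members rose and 16 fell. The median log2 fold change was 0.03 for the members and 0.01 for all genes tested, so the members showed no common direction. The libraries of the groups did not overlap for 38 members, 20 of them higher in TMEM9 KD and 18 lower, where this held for 77.6% of all genes tested, 39.1% higher and 38.5% lower. The members that rose and fell lay side by side in every role except ligand secretion. The share called was 87.5% of 8 ligands, 100% of 2 genes of ligand secretion and 69.2% of 13 receptors tested. It was 57.1% of 7 antagonists, 62.5% of 8 genes of the destruction complex and Dishevelled and 60% of 5 TCF factors with SOX9, near that of all genes. Without WNT6, 4 of 7 ligands rose and 2 fell. Without LEF1, 1 of 4 genes of the TCF group rose and 1 fell.

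**Figure D1:**
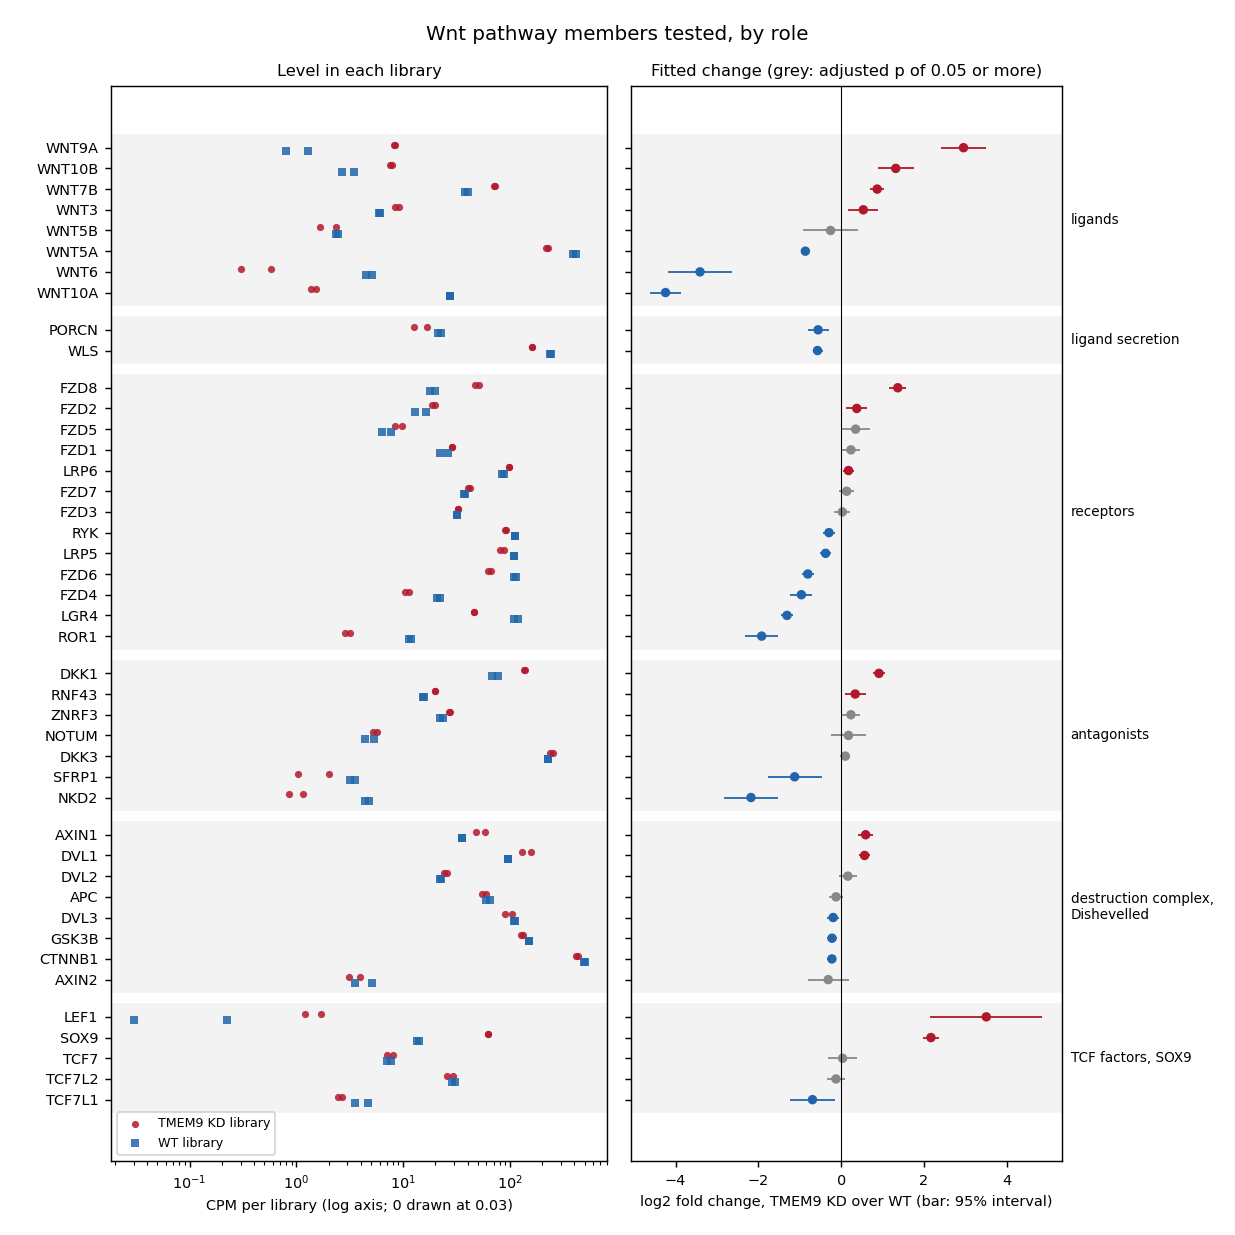
Left: level of each tested member in each library, in CPM on a log axis, with TMEM9 KD as red circles above WT as blue squares. Right: fitted log2 fold change of TMEM9 KD over WT with its 95% interval, in red where higher, blue where lower and grey where not called; the members furthest from 0 are WNT10A, WNT6 and NKD2 on the lower side and LEF1, WNT9A and SOX9 on the higher side.

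Among the ligands the balance between family members differed between the groups: 4 rose, 3 fell and 1 of 8 tested was not called. WNT5A, the ligand most often tied to the polarity branch, had 226 and 216 CPM in the TMEM9 KD libraries, against 417 and 388 CPM in the WT libraries. It was 1.82-fold lower (log2 fold change -0.86, SE 0.0579, adjusted p = 7.3e-25). WNT5A nevertheless had the highest level of the ligands in every library, also per length.

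The strongest decrease was that of WNT10A, a ligand of the beta-catenin branch with known roles in skin, hair and tooth development. WNT10A had 1.52 and 1.37 CPM in the TMEM9 KD libraries, against 27.6 and 27.4 CPM in the WT libraries. Both TMEM9 KD libraries lay far below both WT libraries, an 18.9-fold decrease (log2 fold change -4.24, SE 0.187, adjusted p = 1.64e-37). WNT6, which is expressed in many epithelia, had 5 and 10 counts in the TMEM9 KD libraries and 76 and 81 counts in the WT libraries, or 0.305 and 0.572 CPM against 5.08 and 4.5 CPM. It was 10.6-fold lower (log2 fold change -3.41, SE 0.388, adjusted p = 7.58e-13). WNT6 passed the filter on low counts only through the WT group, so that a decrease was a condition of its being tested.

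WNT6 and WNT10A are immediate neighbours on chromosome 2, with no other protein-coding gene between them in the RefSeq annotation. No other gene of the surrounding stretch was called as lower. BCS1L, a chaperone of respiratory complex III upstream of WNT6, had 644 and 837 counts in the TMEM9 KD libraries, against 370 and 448 counts in the WT libraries, and rose (log2 fold change 0.81, SE 0.101, adjusted p = 1.94e-11). TTLL4, nearer to WNT6 on the same side, had 606 and 584 counts in TMEM9 KD and 400 and 531 in WT (log2 fold change 0.32, SE 0.101, adjusted p = 0.00464), a call lost with WT replicate 1 left out (adjusted p = 0.138) and with DESeq2 (0.0767). RNF25, STK36 and CDK5R2, the next gene after WNT10A, were tested and not called, with log2 fold changes of 0.16, -0.08 and -0.31. The other 7 of the 14 genes in this stretch had at most 8 counts in any library and were not tested. These neighbours were looked up after the values of WNT6 and WNT10A had been seen.

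**Figure D2:**
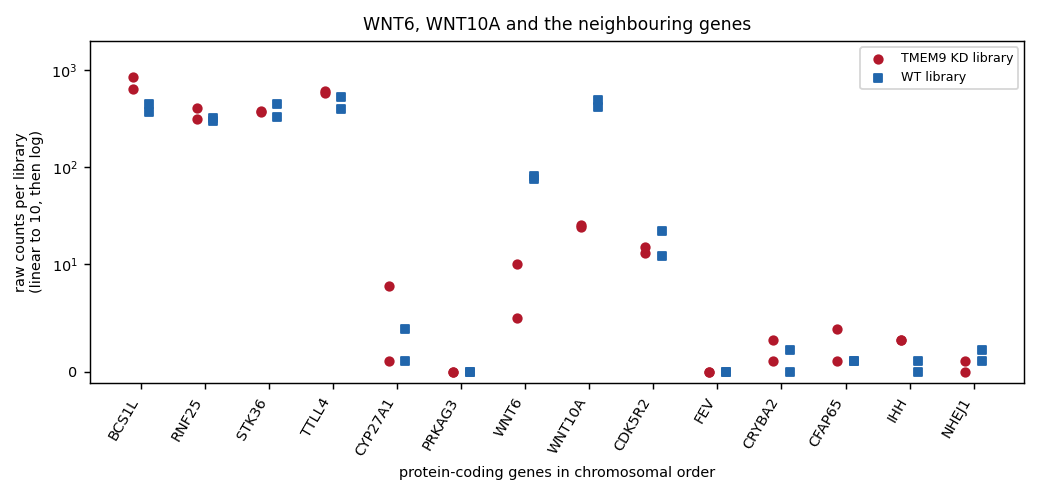
Raw counts in each library for WNT6, WNT10A and the 12 nearest protein-coding genes in chromosomal order, with TMEM9 KD as red circles to the left of WT as blue squares; the axis is linear up to 10 counts and logarithmic above. WNT6 and WNT10A lie lower in TMEM9 KD, while the expressed genes on their left lie at similar or higher counts in TMEM9 KD.

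The promoters of the 4 members that moved furthest and have an entry in the RefSeq promoter table (GRCh38.p14) are shown because WNT6 and WNT10A fell together while WNT9A and LEF1 rose. Each is 1 window per gene, the 250 bases before an annotated start on the gene's own strand, 5′ to 3′, with every CG dinucleotide in capitals.
WNT6 (chr2:218859555-218859804, plus strand): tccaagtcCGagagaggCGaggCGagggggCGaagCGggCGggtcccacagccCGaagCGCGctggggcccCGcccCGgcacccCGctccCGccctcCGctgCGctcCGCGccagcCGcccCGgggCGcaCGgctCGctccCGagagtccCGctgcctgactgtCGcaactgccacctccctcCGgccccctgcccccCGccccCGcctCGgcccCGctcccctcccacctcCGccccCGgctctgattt
WNT10A (chr2:218880602-218880851, plus strand): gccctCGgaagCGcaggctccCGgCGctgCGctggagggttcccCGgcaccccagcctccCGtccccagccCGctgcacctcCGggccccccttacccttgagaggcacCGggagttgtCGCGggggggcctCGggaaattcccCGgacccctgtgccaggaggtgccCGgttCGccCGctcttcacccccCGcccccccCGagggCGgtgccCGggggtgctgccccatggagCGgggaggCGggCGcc
WNT9A (chr1:227947933-227948182, minus strand): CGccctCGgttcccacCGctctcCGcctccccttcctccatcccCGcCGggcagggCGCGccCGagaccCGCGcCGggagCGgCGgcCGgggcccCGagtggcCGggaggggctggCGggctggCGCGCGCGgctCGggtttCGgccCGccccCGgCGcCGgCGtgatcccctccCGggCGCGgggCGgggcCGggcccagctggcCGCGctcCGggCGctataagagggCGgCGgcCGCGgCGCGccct
LEF1 (chr4:108166302-108166551, minus strand): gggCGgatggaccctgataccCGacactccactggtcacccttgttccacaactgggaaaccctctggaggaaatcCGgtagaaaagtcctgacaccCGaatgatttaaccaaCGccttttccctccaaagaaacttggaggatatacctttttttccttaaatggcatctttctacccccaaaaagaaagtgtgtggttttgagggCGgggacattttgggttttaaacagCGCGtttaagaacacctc
The 3 ligand promoters are rich in CG dinucleotides, with 32 for WNT6, 24 for WNT10A and 44 for WNT9A, where the median over the 35116 promoters of the table was 11. The LEF1 window shown held 8, with a GC content of 47.6%, against 77.6% to 84.4% for the ligands. The 32 members with an entry have 41 windows, so some have more than 1. The LEF1 values thus describe the window shown and not every start of the gene. CG-rich promoters thus occurred both among ligands that fell and in the one shown that rose. The core letters bound by TCF factors, CTTTGAT, were searched on both strands in the windows of 250 bases before to 50 after the start. They occurred in 2.62% of all windows in the table and in 0 of 41 windows, which belong to 32 members. The 17 members without an entry are WNT7B, WNT10B, WNT11, FZD2, FZD3, FZD6, FZD7, FZD10, LRP6, LGR5, DKK3, SFRP1, ZNRF3, NKD1, NOTUM, AXIN2 and SOX9.

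Other ligands of the beta-catenin branch were higher in TMEM9 KD. WNT9A had 8.35 and 8.18 CPM in the TMEM9 KD libraries, against 0.801 and 1.28 CPM in the WT libraries, with 137 and 143 counts against 12 and 23. It was 7.76-fold higher (log2 fold change 2.96, SE 0.273, adjusted p = 6.01e-17). WNT10B, known for promoting bone formation and opposing fat cell formation, had 7.5 and 7.89 CPM in TMEM9 KD and 2.67 and 3.44 CPM in WT. It was 2.49-fold higher (log2 fold change 1.32, SE 0.221, adjusted p = 2.15e-07), so the closely related ligands WNT10A and WNT10B went opposite ways. WNT7B, which per length came next to WNT5A in TMEM9 KD and close to WNT10A in WT, had 70.9 and 72.02 CPM in TMEM9 KD and 37.9 and 40.1 CPM in WT, 1.83-fold higher (log2 fold change 0.87, SE 0.0837, adjusted p = 4.16e-16).

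WNT3 also rose, with 8.35 and 9.04 CPM in TMEM9 KD and 5.94 and 6.05 CPM in WT (log2 fold change 0.54, SE 0.183, adjusted p = 0.00892), but the call was lost with WT replicate 1 left out (adjusted p = 0.0567), with WT replicate 2 left out (0.0585) and with DESeq2 (0.14). WNT5B, a close relative of WNT5A, had 1.65 and 2.35 CPM in TMEM9 KD and 2.34 and 2.44 CPM in WT and was not called, with a 95% interval of the log2 fold change from -0.92 to 0.40. WNT11 had 3 and 1 counts in TMEM9 KD and 7 and 8 in WT and was not tested. WNT7A had 0 counts in every library, which allows up to 3 counts, or 0.167 to 0.2 CPM depending on the library. The floor covers counting error only.

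Per kilobase of exon, which makes levels of different genes comparable, the 10 ligands summed to 52.5 and 52.0 CPM per kb in the TMEM9 KD libraries, against 78.3 and 74.9 CPM per kb in the WT libraries. WNT5A made up 58.1% and 56.3% of this sum in TMEM9 KD and 72.0% and 70.1% in WT. WNT7B held 26.7% and 27.4% in TMEM9 KD, against 9.59% and 10.6% in WT. WNT10A held 0.851% and 0.774% in TMEM9 KD, against 10.3% and 10.7% in WT. In TMEM9 KD the ligand transcripts were thus fewer per length and consisted of WNT5A and WNT7B for the most part, with a far smaller share of WNT10A. These sums are descriptions, as 2 libraries against 2 allow no permutation test below 0.05.

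**Figure D3:**
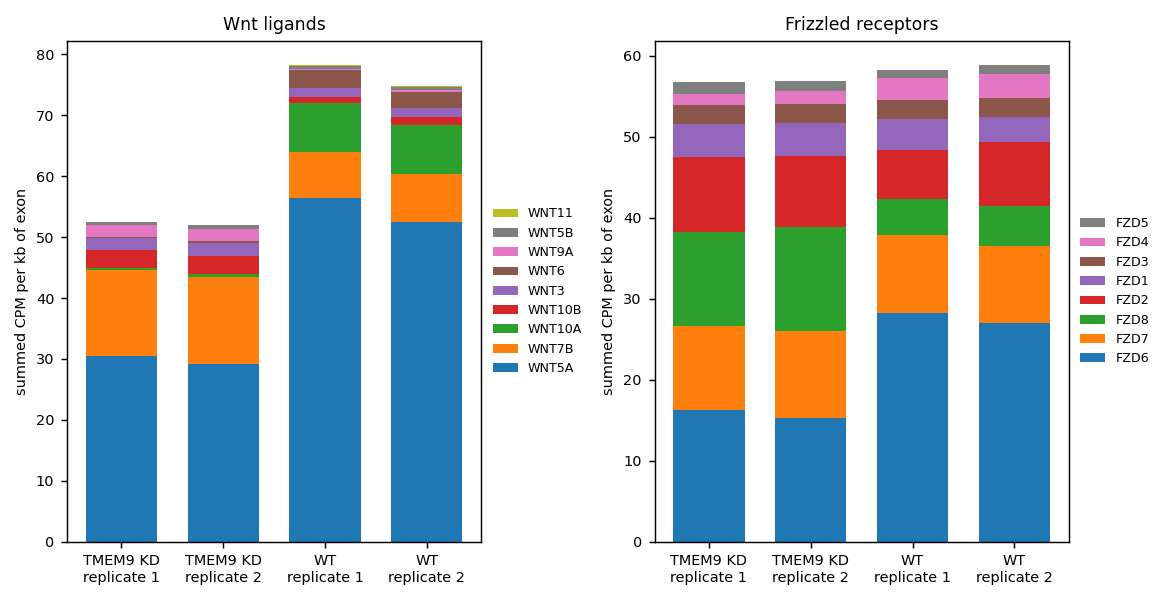
Stacked levels of the ligands (left) and the Frizzled receptors (right) in each library, in CPM per kilobase of exon, with the TMEM9 KD libraries left of the WT libraries. The ligand sum is lower in both TMEM9 KD libraries, while the Frizzled sum is similar in all 4 libraries with FZD8 taking a larger and FZD6 a smaller share in TMEM9 KD.

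Both genes of ligand secretion were lower in TMEM9 KD. WLS, the carrier that takes Wnt proteins to the cell surface, had 161 and 161 CPM in the TMEM9 KD libraries, against 241 and 236 CPM in the WT libraries. It was 1.49-fold lower (log2 fold change -0.57, SE 0.061, adjusted p = 5.58e-14). PORCN, the acyltransferase that attaches the lipid to Wnt proteins, had 12.6 and 16.8 CPM in TMEM9 KD and 22.4 and 20.9 CPM in WT (log2 fold change -0.56, SE 0.128, adjusted p = 0.000115). Neither gene overlapped between the groups, which also held for 77.6% of all genes tested, 38.5% as lower. Neither passed a test against a change of 1.5-fold.

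Of 13 receptors tested, 3 rose and 6 fell. ROR1, a receptor tyrosine kinase that binds WNT5A, had 2.87 and 3.2 CPM in TMEM9 KD and 11.8 and 11.3 CPM in WT. It was 3.79-fold lower (log2 fold change -1.92, SE 0.198, adjusted p = 9.96e-15). ROR2, its relative, had 1 and 0 counts in TMEM9 KD and 0 and 1 in WT and was not tested. RYK, a further receptor of this branch, had 92.02 and 89.6 CPM in TMEM9 KD and 112 and 111 CPM in WT, a smaller decrease (log2 fold change -0.30, SE 0.0699, adjusted p = 0.000167).

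LGR4, which binds R-spondins and thereby keeps Frizzled receptors at the cell surface, had 45.6 and 45.4 CPM in the TMEM9 KD libraries, against 117 and 108 CPM in the WT libraries. It was 2.48-fold lower (log2 fold change -1.31, SE 0.0768, adjusted p = 1.37e-28). LGR5, its relative known as a stem cell marker of the intestine, had 3 and 0 counts in TMEM9 KD and 0 and 0 in WT and was not tested.

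The Frizzled receptors went both ways. FZD8 had 46.4 and 51.4 CPM in TMEM9 KD and 17.8 and 19.996 CPM in WT. It was 2.58-fold higher (log2 fold change 1.37, SE 0.102, adjusted p = 5.38e-22). FZD6, which is known for planar polarity in skin and hair, had 66.2 and 62.1 CPM in TMEM9 KD and 115 and 109.6 CPM in WT, 1.75-fold lower (log2 fold change -0.81, SE 0.0733, adjusted p = 2.97e-17). In both cases the TMEM9 KD libraries lay outside the range of the WT libraries by more than the spread within a group. FZD4, a receptor of Norrin as well as of Wnt proteins, had 10.4 and 11.4 CPM in TMEM9 KD and 20.6 and 21.8 CPM in WT, 1.95-fold lower (log2 fold change -0.96, SE 0.134, adjusted p = 1.08e-09). Of its exon bases, 18.9% also lie in exons of PRSS23 on the opposite strand, which had a log2 fold change of -0.36 (adjusted p = 0.00155), and as the strand setting of the counting is not given, reads of this stretch cannot be assigned to either gene.

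FZD2 had 19.6 and 18.6 CPM in TMEM9 KD and 12.8 and 16.4 CPM in WT (log2 fold change 0.38, SE 0.131, adjusted p = 0.0103), and its call was lost with WT replicate 1 left out (log2 fold change 0.21, adjusted p = 0.314) and with DESeq2 (0.14). FZD1, FZD3, FZD5 and FZD7 were not called. Their log2 fold changes lay between 0.03 and 0.35, and the widest of their 95% intervals, that of FZD5, reached 0.70. FZD10 had 0 counts in every library. Per kilobase, the Frizzled receptors summed to 56.8 and 56.9 CPM per kb in TMEM9 KD and 58.2 and 58.9 CPM per kb in WT. The share of FZD8 in this sum was 20.3% and 22.4% in TMEM9 KD, against 7.57% and 8.42% in WT, and that of FZD6 was 28.7% and 26.8% in TMEM9 KD, against 48.4% and 45.8% in WT. The sum thus differed little while its make-up changed.

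The co-receptors of the beta-catenin branch differed little. LRP5 had 80.1 and 87.9 CPM in TMEM9 KD and 108 and 109.7 CPM in WT, 1.3-fold lower (log2 fold change -0.38, SE 0.0713, adjusted p = 3.58e-06). LRP6 had 97.3 and 96.9 CPM in TMEM9 KD and 83.2 and 88.4 CPM in WT, 1.13-fold higher (log2 fold change 0.18, SE 0.0717, adjusted p = 0.0278). The call of LRP6 ended with WT replicate 1 left out (adjusted p = 0.371), with WT replicate 2 left out (0.14), with no filter on low counts (0.0677) and with DESeq2 (0.132).

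Of 7 antagonists tested, 2 rose and 2 fell, or 57.1% called, near the 57.7% of all genes tested. DKK1, a secreted inhibitor that binds LRP5 and LRP6 and is itself a target of beta-catenin, had 135 and 139 CPM in the TMEM9 KD libraries, against 67.5 and 77.3 CPM in the WT libraries. It was 1.88-fold higher (log2 fold change 0.91, SE 0.0715, adjusted p = 8.35e-21). Per kilobase DKK1 was the member with the highest level in TMEM9 KD, at 61.0 and 62.9 CPM per kb, while 4 members were above it in WT, where it had 30.6 and 35.0 CPM per kb. The first place in WT was held by WNT5A, at 56.4 and 52.5 CPM per kb, next to WLS at 54.0 and 52.8, and those neighbours in the order did not differ beyond their spread. PRKG1-AS1, on the strand opposite to DKK1, shares 9.6% of its exon bases and had at most 5 counts in any library. DKK3, a divergent member of the Dickkopf family, had 234 and 249 CPM in TMEM9 KD and 224 and 226 CPM in WT and was not called (95% interval of the log2 fold change from -0.02 to 0.22). Without TMEM9 KD replicate 1 it was called as higher (0.15, adjusted p = 0.0015).

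NKD2, an inhibitor of Dishevelled, had 0.854 and 1.14 CPM in TMEM9 KD and 4.34 and 4.78 CPM in WT. It was 4.53-fold lower (log2 fold change -2.18, SE 0.33, adjusted p = 1.43e-08). SFRP1, a secreted protein that binds Wnt ligands, had 1.04 and 2.002 CPM in TMEM9 KD and 3.54 and 3.17 CPM in WT (log2 fold change -1.12, SE 0.33, adjusted p = 0.00231). The SFRP1 call was lost with TMEM9 KD replicate 1 left out (log2 fold change -0.73, adjusted p = 0.0734), against 1.5-fold (0.0757) and with DESeq2 (0.0709). NKD1, a relative of NKD2 and a common target of beta-catenin, had 0 and 5 counts in TMEM9 KD and 3 and 3 in WT and was not tested.

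RNF43 and ZNRF3 are membrane ubiquitin ligases that remove Frizzled receptors from the cell surface and are both known targets of beta-catenin. RNF43 had 19.7 and 19.6 CPM in TMEM9 KD and 15.8 and 15.3 CPM in WT, 1.27-fold higher (log2 fold change 0.34, SE 0.126, adjusted p = 0.0167). Its call was lost with WT replicate 1 left out (adjusted p = 0.0745), with WT replicate 2 left out (0.144) and with DESeq2 (0.159). TSPOAP1-AS1, on the opposite strand, shares 20.3% of the exon bases of RNF43 but had 0 counts in TMEM9 KD and 1 and 8 in WT. SUPT4H1, on the same strand, shares 1.9% of the RNF43 exon bases. It had 366 and 394 counts in TMEM9 KD and 262 and 315 in WT and also rose (log2 fold change 0.36, adjusted p = 0.00779). Its part in the RNF43 counts was not tested. ZNRF3 had 27.4 and 26.8 CPM in TMEM9 KD and 22.2 and 23.7 CPM in WT, without overlap, and was not called (log2 fold change 0.24, adjusted p = 0.0571). NOTUM, a secreted enzyme that removes the lipid of Wnt proteins, had 5.73 and 5.21 CPM in TMEM9 KD and 4.34 and 5.28 CPM in WT and was not called (95% interval from -0.25 to 0.61).

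Genes of the destruction complex and Dishevelled changed by less than 2-fold, with 2 of 8 higher and 3 lower. That is 62.5% called, near the 57.7% of all genes tested. The transcript of beta-catenin, CTNNB1, had 436 and 417 CPM in the TMEM9 KD libraries, against 496 and 499.8 CPM in the WT libraries, 1.17-fold lower (log2 fold change -0.22, SE 0.0542, adjusted p = 0.000236). GSK3B, the kinase that marks beta-catenin for degradation, had 131 and 126 CPM in TMEM9 KD and 149 and 150.5 CPM in WT (log2 fold change -0.22, SE 0.0652, adjusted p = 0.00249). GSK3B lost its call with WT replicate 1 left out (adjusted p = 0.0617) or with WT replicate 2 left out (0.0712). APC, whose protein is the reported link between TMEM9 and beta-catenin, had 59.5 and 54.1 CPM in TMEM9 KD and 64.2 and 59.7 CPM in WT and was not called (log2 fold change -0.12, 95% interval from -0.29 to 0.04, adjusted p = 0.187). Without TMEM9 KD replicate 1, APC was called as lower (-0.19, adjusted p = 0.0397).

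AXIN1, the scaffold of the complex, had 48.1 and 57.9 CPM in TMEM9 KD and 35.1 and 35.3 CPM in WT, 1.51-fold higher (log2 fold change 0.59, SE 0.0914, adjusted p = 2.52e-08). The inducible scaffold AXIN2 is widely used as a readout of beta-catenin signalling in many tissues. AXIN2 had 3.9 and 3.09 CPM in TMEM9 KD and 3.54 and 5.05 CPM in WT, with 64 and 54 counts against 53 and 91. The groups overlapped and AXIN2 was not called (log2 fold change -0.31, SE 0.251, adjusted p = 0.288). Its 95% interval, from -0.81 to 0.19, covers changes in either direction, so no difference was detectable at these counts. AC004805.1, annotated on the same strand over 25.2% of the AXIN2 exon bases, had 0 counts in every library.

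The Dishevelled proteins relay the signal from the receptors. DVL1 had 128 and 155 CPM in TMEM9 KD and 95.9 and 95.6 CPM in WT, 1.48-fold higher (log2 fold change 0.57, SE 0.0706, adjusted p = 2.58e-11). DVL3 had 89.1 and 103 CPM in TMEM9 KD and 112 and 109 CPM in WT (log2 fold change -0.19, SE 0.0712, adjusted p = 0.0155), and DVL2 was not called (log2 fold change 0.16, adjusted p = 0.215). In both AXIN1 and DVL1 the TMEM9 KD libraries were further apart than the WT libraries, yet both were above both WT libraries. The decrease of DVL3 was not stable: its call was lost with TMEM9 KD replicate 1 left out (log2 fold change -0.09, adjusted p = 0.236), with WT replicate 1 left out (0.186), with WT replicate 2 left out (0.0786), with library size as the only scaling (0.141) and with DESeq2 (0.083).

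Of the TCF factors, LEF1 was higher in TMEM9 KD and near 0 in WT. LEF1 had 28 and 21 counts in the TMEM9 KD libraries, against 0 and 4 counts in the WT libraries, or 1.71 and 1.2 CPM against 0 and 0.222 CPM. The fitted log2 fold change was 3.51 (SE 0.684, adjusted p = 6.15e-06). It was 2.66 with WT replicate 1 left out and 7.56 with WT replicate 2 left out, where the WT library that remains has 0 counts, so the size of the increase is poorly fixed. LEF1 is both a partner and a known target of beta-catenin. It passed the filter on low counts only through TMEM9 KD, its level there was still low, and its antisense gene LEF1-AS1 had 0 and 5 counts in TMEM9 KD and 0 in both WT libraries.

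TCF7L2, the TCF factor with the highest level here, had 28.97 and 25.5 CPM in TMEM9 KD and 30.7 and 28.8 CPM in WT and was not called (log2 fold change -0.13, 95% interval from -0.34 to 0.08, adjusted p = 0.309). TCF7 had 8.05 and 7.09 CPM in TMEM9 KD and 7.68 and 7.11 CPM in WT and was not called either (95% interval from -0.32 to 0.39). SKP1, on the opposite strand, shares 2.1% of the TCF7 exon bases. SKP1 had 4622 and 4585 counts in TMEM9 KD and 4602 and 5569 in WT, against 132 and 124 and 115 and 128 for TCF7. As the strand setting of the counting is not given, reads of the shared stretch cannot be assigned to either gene. TCF7L1, which acts mainly as a repressor, had 2.68 and 2.46 CPM in TMEM9 KD and 3.54 and 4.72 CPM in WT (log2 fold change -0.69, SE 0.273, adjusted p = 0.0239). Its call was lost with TMEM9 KD replicate 2 left out (adjusted p = 0.0712), with WT replicate 2 left out (log2 fold change -0.48, adjusted p = 0.306) and with DESeq2 (0.207).

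SOX9 is a transcription factor of progenitor cells in many epithelia and a target of beta-catenin in the intestine. It had 62.5 and 61.9 CPM in the TMEM9 KD libraries, against 13.5 and 14.1 CPM in the WT libraries. It was 4.5-fold higher (log2 fold change 2.17, SE 0.102, adjusted p = 2.01e-35), with little spread within either group. The members downstream of beta-catenin in other tissues thus differed among themselves: SOX9, LEF1, DKK1 and RNF43 were higher, AXIN2, ZNRF3 and NOTUM were not called, and NKD1 was near 0 counts in all libraries. Of those higher, LEF1 passed the filter on low counts only through TMEM9 KD, so that an increase was a condition of testing. The call of RNF43 was lost with DESeq2.

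Other genes of the pathway, in 7 lists with 129 genes, were read in the same fit. Of the 96 tested, 30 rose and 40 fell, with a median log2 fold change of -0.03. That is 72.9% called, where 57.7% of all genes tested were called, 28.7% as higher and 29% as lower. The share called was 55.6% in the list of the destruction complex and 60% in that of planar polarity, near that of all genes. Of the 96, 8 reached the low-count limit in 1 group only, 2 through TMEM9 KD and 6 through WT, so that a difference was a condition of their being tested. Without these 8, 29 of 88 rose and 34 fell, with a median log2 fold change of 0.005. Among other ligands, which include the R-spondins that act through LGR4, only WNT2B passed the filter, with 0.915 and 1.26 CPM in TMEM9 KD and 1.87 and 1.89 CPM in WT (log2 fold change -0.78, adjusted p = 0.0944), and RSPO1 to RSPO4 had at most 4 counts in any library. WNT3A, WNT9B and WNT1 had 0 counts in every library. WNT9B and WNT1 are the immediate neighbours of WNT3 and WNT10B.

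Other receptors and co-receptors were mostly lower, with 7 of 8 lower and the other one not called (median log2 fold change -0.76). SDC1, a heparan sulphate proteoglycan that presents Wnt ligands, had 60.6 and 62.4 CPM in TMEM9 KD and 302 and 299.7 CPM in WT (log2 fold change -2.29, SE 0.0664, adjusted p = 8.37e-52). Other antagonists were higher in 3 of 13 and lower in 9, with a median log2 fold change of -2.07. Of these 13, SHISA2, SFRP2, FRZB and DACT3 passed the filter on low counts only through WT, and the other 9 had a median of -0.81, with 3 higher and 5 lower. The largest decrease was that of SHISA2, which retains Frizzled receptors inside the cell in frog and chick embryos, with 2 and 2 counts in TMEM9 KD and 376 and 544 in WT (log2 fold change -7.79, SE 0.293, adjusted p = 1.07e-42). The largest increase was that of APCDD1, with 44 and 24 counts in TMEM9 KD and 9 and 13 in WT (log2 fold change 1.59, adjusted p = 0.00168), which was no longer called with TMEM9 KD replicate 1 left out (1.04, adjusted p = 0.157) or with DESeq2 (0.0614).

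Of 18 further genes of the destruction complex and its kinases, 6 rose and 4 fell (median 0.05), all by less than 2-fold. BTRC, the ubiquitin ligase subunit that recognises marked beta-catenin, had the largest called increase (log2 fold change 0.39, SE 0.111, adjusted p = 0.00148). CCDC88C, which binds Dishevelled, had the largest called decrease (log2 fold change -0.41, SE 0.141, adjusted p = 0.00941), a call lost with TMEM9 KD replicate 1 left out (-0.19, adjusted p = 0.273), with WT replicate 1 left out (0.0688) and with DESeq2 (0.13).

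Of 17 nuclear co-factors, 8 rose and 6 fell (median 0.15). The co-repressor gene TLE4 had 44.8 and 43.1 CPM in TMEM9 KD and 15.6 and 18.3 CPM in WT (log2 fold change 1.37, SE 0.106, adjusted p = 5.92e-21). BCL9L, a co-activator that bridges beta-catenin and the PYGO proteins, had 63.8 and 71.5 CPM in TMEM9 KD and 118 and 119.7 CPM in WT (log2 fold change -0.81, SE 0.0728, adjusted p = 1.23e-17). Of the other genes of the TLE family, TLE1 was called as higher and TLE2, TLE3 and TLE5 as lower. The co-activators CREBBP, EP300, PYGO1 and PYGO2 were called as higher, so neither co-repressors nor co-activators went one way.

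Of 20 genes of the planar polarity and calcium branch, 4 rose and 8 fell (median -0.05). PRICKLE1, a core planar polarity protein, had 37 and 35 counts in TMEM9 KD and 3 and 1 in WT (log2 fold change 4.05, SE 0.62, adjusted p = 2.03e-08). DAAM2, a formin-family protein that binds Dishevelled, had 5 and 7 counts in TMEM9 KD and 102 and 96 in WT (log2 fold change -4.07, SE 0.379, adjusted p = 1.03e-16). PRICKLE1 passed the filter only through TMEM9 KD and DAAM2 only through WT, so their directions were a condition of testing. Without PRICKLE1 and DAAM2, 3 of 18 genes rose and 7 fell. The log2 fold change of PRICKLE1 was 5.08 with WT replicate 1 left out and 3.34 with WT replicate 2 left out.

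Of 19 widely used beta-catenin targets, 9 rose and 6 fell (median 0.26). FOSL1, a subunit of the AP-1 factor, had 209.8 and 228 CPM in TMEM9 KD and 58.96 and 62.9 CPM in WT (log2 fold change 1.84, SE 0.0693, adjusted p = 8.75e-43). EPHB3, an ephrin receptor, had 5 and 6 counts in TMEM9 KD and 32 and 37 in WT (log2 fold change -2.66, SE 0.507, adjusted p = 3.83e-06), and passed the filter only through WT. Without EPHB3, 9 of the 18 targets rose and 5 fell.

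**Figure D4:**
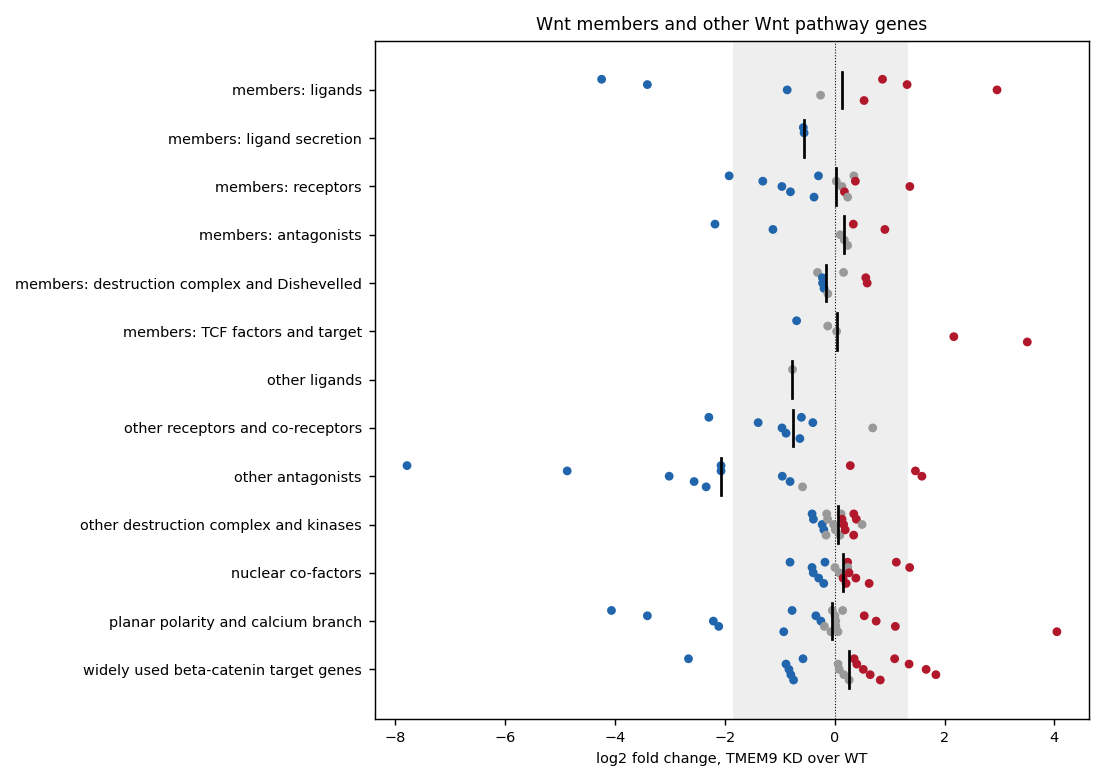
Fitted log2 fold change of TMEM9 KD over WT for each tested gene of the 6 member groups and of the 7 lists of other Wnt pathway genes, in red where higher, blue where lower and grey where not called, with the list median as a black bar. The shaded band runs from the 5th to the 95th percentile of all tested genes with a symbol (-1.83 to 1.31); medians lie near 0 except for ligand secretion, other ligands with 1 gene tested, other receptors and other antagonists.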

How the data were processed

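The authors deposited raw counts per Ensembl gene for each library. Per the submitters' processing notes, CASAVA and Bowtie 0.12.2 were used and 2 builds, mm8 and hg19, are named with no role stated. No source used here gives the counting tool, the annotation or the strand setting. Per the labels' protocols, libraries were made from total RNA by a standard Illumina protocol. All columns belonged to a sample. Symbols were found for 45342 of 48162 genes, 304 of them from GENCODE 29, which also gave exon lengths and overlaps; its build differs, so the only coordinates given are those of the RefSeq promoters.

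Counts were tested in R 4.3.3 by edgeR's (4.0.16) quasi-likelihood method, after TMM scaling and edgeR's default expression filter (counts of at least 10, and 15 in total), with group as the only term and Benjamini-Hochberg adjustment over 14923 genes at 0.05. Each gene had 2 residual degrees of freedom, and the counts a common biological coefficient of variation of 0.0498. SE was taken as the size of the log2 fold change divided by the root of the F statistic, with 95% intervals from the t distribution. The test was tried on data simulated for TMEM9 KD against WT (14870 genes, of which 50 were altered per fold size). Of genes changed 1.25-fold, 36% were called, with 86% at 1.5-fold, 96% at 2-fold and 100% at 4-fold, and 6 of 14670 unchanged genes. Altered genes were drawn only from those above a minimum expected count, and every gene had the common coefficient of variation in both groups. These shares thus do not cover genes near 0 counts or a spread that differs between genes or groups.

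Replicates differed by more than sampling noise, with a chi-square per degree of freedom of 4.82 within TMEM9 KD and 2.04 within WT, so each library was kept as a replicate. Members and lists were chosen with earlier results of these data known. Every member is named; full values go to up to 5 called members per group with the largest change, to CTNNB1, AXIN2, APC, GSK3B, TCF7L2, LRP6 and WLS, and to members near 0 counts in 1 group; from each other list come the called genes with the largest change in each direction. Alternatives were DESeq2 1.42.0 as test or size factors, library size only, no filter, a test against 1.5-fold, leaving out each library and a replicate block.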

Additional observations from a re-analysis of the deposited data

How the results depend on the processing

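Tested against a change of 1.5-fold, 7 members were higher and 8 lower, against 13 and 17 for any change. The 15 are WNT5A, WNT6, WNT7B, WNT9A, WNT10A, WNT10B, FZD4, FZD6, FZD8, ROR1, LGR4, DKK1, NKD2, LEF1 and SOX9, and these kept direction and call under every alternative run. Of these, WNT6 passed the filter only through WT and LEF1 only through TMEM9 KD, so their directions were a condition of testing. The LEF1 log2 fold change was 2.66 with WT replicate 1 left out and 7.56 with WT replicate 2 left out. In the test against 1.5-fold, 1111 of all genes were higher and 1692 lower, against 4283 and 4335, and 11 other Wnt pathway genes were higher and 22 lower, against 30 and 40. Under the remaining alternatives the member counts ran from 9 to 18 higher and from 14 to 17 lower. With library size as the only scaling, which moved the median of all genes to 0.08, FZD1, FZD5, FZD7, DKK3 and ZNRF3 were also called as higher. FZD1 was called without WT replicate 1 (adjusted p = 0.0402), FZD5 without TMEM9 KD replicate 2 (0.0443) and RNF25 without TMEM9 KD replicate 1 (0.0429). Signs that turned were those of uncalled genes: with each library left out in turn, TCF7 lay between -0.0514 (without TMEM9 KD replicate 1) and 0.118, with -0.039 without WT replicate 2, and CDK5R2 between -0.564 and 0.029 (without WT replicate 2). The cause was not tested. A fit that leaves out a library assumes that the lone sample varies like the other group. The replicate numbers are shared by the groups, but no label says that they pair libraries, and the deviations of same-numbered libraries had a correlation of 0.000474 across genes; with the replicate block 13 members were higher and 17 lower, and 4171 and 4266 of all genes. Depth limits WNT7A, FZD10, ROR2, LGR5, NKD1 and WNT11, which had too few counts to test.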
